A study of Mus musculus with 8 samples.

Results

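The Hox genes of the HoxA, HoxB, HoxC and HoxD clusters were followed through RNA-Seq of NIH3T3, an established line of embryonic mouse fibroblasts able to respond to Hedgehog (Hh) ligand. The 38 Hox genes examined were chosen by name, 10 in HoxA, 10 in HoxB, 9 in HoxC and 9 in HoxD, out of 20198 genes with a row in all 8 libraries. The study asked how the orphan nuclear receptor Esrrb changes the response to Hh, and had 4 groups of 2 libraries. Control and Hh-CM cells carried the empty pcDNA3.1 (Zeo+) vector, and Esrrb and Esrrb+Hh-CM cells carried the same vector with an Esrrb insert. All lines were transfected, selected in 150 ug/ml zeocin and pooled from separate transfections. The Hh-CM groups received, for 48 h, a 1:100 dilution of medium from HEK293 cells that secrete the amino-terminal part of Sonic hedgehog, and the vehicle for the others was medium, equally diluted, of HEK293 cells that lack the transgene. Each vector is thus represented by its own selected pool, so that the insert and other differences between the pools cannot be told apart. Whether the 2 libraries of a group came from separate transfections is not stated in the labels, and the p-values measure the spread between these libraries.

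Hox genes encode homeodomain transcription factors that give cells their position along the body axis. They lie side by side in 4 clusters in the order in which they are used from head to tail, with low paralog numbers at the anterior end and high numbers at the posterior end. Fibroblasts keep the Hox pattern of the body region from which they came. Their products bind DNA with TALE cofactors such as Pbx and Meis proteins, Polycomb complexes keep silent clusters closed, and Trithorax proteins keep active ones open. Sonic hedgehog patterns the limb bud, where posterior HoxD genes are also active.

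The promoters of Hoxd8, Hoxd9 and Hoxd10 are shown because these neighbours carried most of the differences between the groups. Each runs from 250 bases before to 50 bases after the transcription start, on the plus strand of chromosome 2, and was taken from RefSeq on GRCm38.p6, a later build than the mm9 build of the expression files. The Hoxd8 window is chr2:74704365-74704664, the Hoxd9 window chr2:74697513-74697812 and the Hoxd10 window chr2:74691641-74691940. Capitals mark the letters AAGGTCA, the core of the half-site bound by estrogen-related receptors, searched on both strands.
Hoxd8: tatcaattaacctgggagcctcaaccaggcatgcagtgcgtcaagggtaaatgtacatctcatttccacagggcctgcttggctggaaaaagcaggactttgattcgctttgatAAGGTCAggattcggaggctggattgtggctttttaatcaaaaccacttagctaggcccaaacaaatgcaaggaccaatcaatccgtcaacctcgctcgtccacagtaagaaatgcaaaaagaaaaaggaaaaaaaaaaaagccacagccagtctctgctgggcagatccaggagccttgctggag
Hoxd9: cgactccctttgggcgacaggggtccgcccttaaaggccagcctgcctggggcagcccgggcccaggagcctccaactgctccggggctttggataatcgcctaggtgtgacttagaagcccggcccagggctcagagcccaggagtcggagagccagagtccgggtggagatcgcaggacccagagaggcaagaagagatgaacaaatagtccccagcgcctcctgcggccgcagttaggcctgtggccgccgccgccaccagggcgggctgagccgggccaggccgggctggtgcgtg
Hoxd10: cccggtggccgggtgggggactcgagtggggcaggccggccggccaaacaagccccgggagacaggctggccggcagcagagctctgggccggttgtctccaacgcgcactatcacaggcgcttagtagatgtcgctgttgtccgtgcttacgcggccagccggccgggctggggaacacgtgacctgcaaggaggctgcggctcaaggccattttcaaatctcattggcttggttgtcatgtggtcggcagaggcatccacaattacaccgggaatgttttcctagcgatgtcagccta
AAGGTCA was found in 4.72% of all 32851 RefSeq mouse promoters of this length. Of the 22 listed Hox genes with a promoter in the table, Hoxd8 alone held it, beginning at position -136 relative to its start. CCACCCA, the core of the site bound by GLI proteins, was found in 9.3% of all promoters and in those of Hoxa5, Hoxa7, Hoxa13 and Hoxc4. A match describes letters in this window and is not a binding site.

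Expression was deposited as FPKM, the number of fragments per kilobase of transcript scaled to all mapped fragments of the library, for loci assembled separately in each library. No read counts were given. The steps between low values placed the depth of the libraries at 0.743 to 1.54 times that of Control replicate 1. Gli1, the standard readout of Hh signalling, was between 0.0217 and 0.106 FPKM in the 4 vehicle libraries and between 26.8 and 34.8 FPKM in the 4 Hh-CM libraries. The Esrrb gene was at 0 FPKM in all 4 libraries labelled with the Esrrb vector and at 0.0281 and 0.0203 FPKM in the Hh-CM libraries, so that its row did not check the vector labels. Group names with Esrrb below therefore mean the libraries labelled so, and directions between vectors rest on those labels. The 10 fibroblast markers summed to 8144 to 8621 FPKM in the empty-vector libraries, 10005 to 10027 FPKM in Esrrb and 8988 to 9143 FPKM in Esrrb+Hh-CM. The 5 epithelial markers (Epcam, Cdh1, Krt8, Krt18 and Krt19) summed to at most 0.158 FPKM in any library. Of the 4 endothelial markers, Pecam1, Cdh5 and Kdr stayed below 0.5 FPKM, and Tek moved the sum from 0.081 to 0.143 FPKM in vehicle to 1.19 to 1.67 FPKM in Hh-CM. The leukocyte list, of 5 genes, summed to 1.09 to 1.91 FPKM in Control, 2.08 to 2.78 in Hh-CM, 1.51 to 1.96 in Esrrb and 1.61 to 2.12 in Esrrb+Hh-CM, with Ptprc, Csf1r and Cd3e below 0.5 FPKM. The pluripotent list (Pou5f1, Nanog, Sox2 and Zfp42) and the neural list (Sox10, Elavl3 and Gfap) reached at most 0.396 and 0.554 FPKM. The part of these markers in the Hox results was not tested, and in bulk RNA a smaller share of expressing cells and less RNA per cell cannot be told apart. The Esrrb replicate 1 table stood apart, with 8396 rows under reused locus numbers, against 0 in the other 7 libraries.

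The Hox genes fell into a small expressed set and a rest that was low or at 0. Of the 38 genes, 31 had a row of their own in all 8 libraries, and 8 of those were at 0 FPKM in every library (Hoxa11, Hoxa13, Hoxc10, Hoxc11, Hoxc12, Hoxc13, Hoxd1 and Hoxd12). A further 14 were above 0 somewhere but below the limit for testing, 1 FPKM in at least 2 libraries, and 9 were tested: Hoxa3, Hoxa4, Hoxa7, Hoxc6, Hoxc9, Hoxd3, Hoxd8, Hoxd9 and Hoxd10. The other 7 (Hoxa2, Hoxa5, Hoxa6, Hoxb3, Hoxb9, Hoxc4 and Hoxd4) lacked a row of their own in 1 or more libraries, where a longer row, usually shared with a neighbour, covered most of them. By position, 6 of the tested genes were in paralog groups 3 to 8 and 3 in groups 9 to 10. The posterior groups 11 to 13 held 9 genes, 8 of which stayed below 0.1 FPKM everywhere; the exception was Hoxb13, at most 0.793 FPKM. The map of all Hox genes shows this band of central genes in HoxA, HoxC and HoxD, and the low HoxB values on the Esrrb-labelled side.

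**Figure D1:**
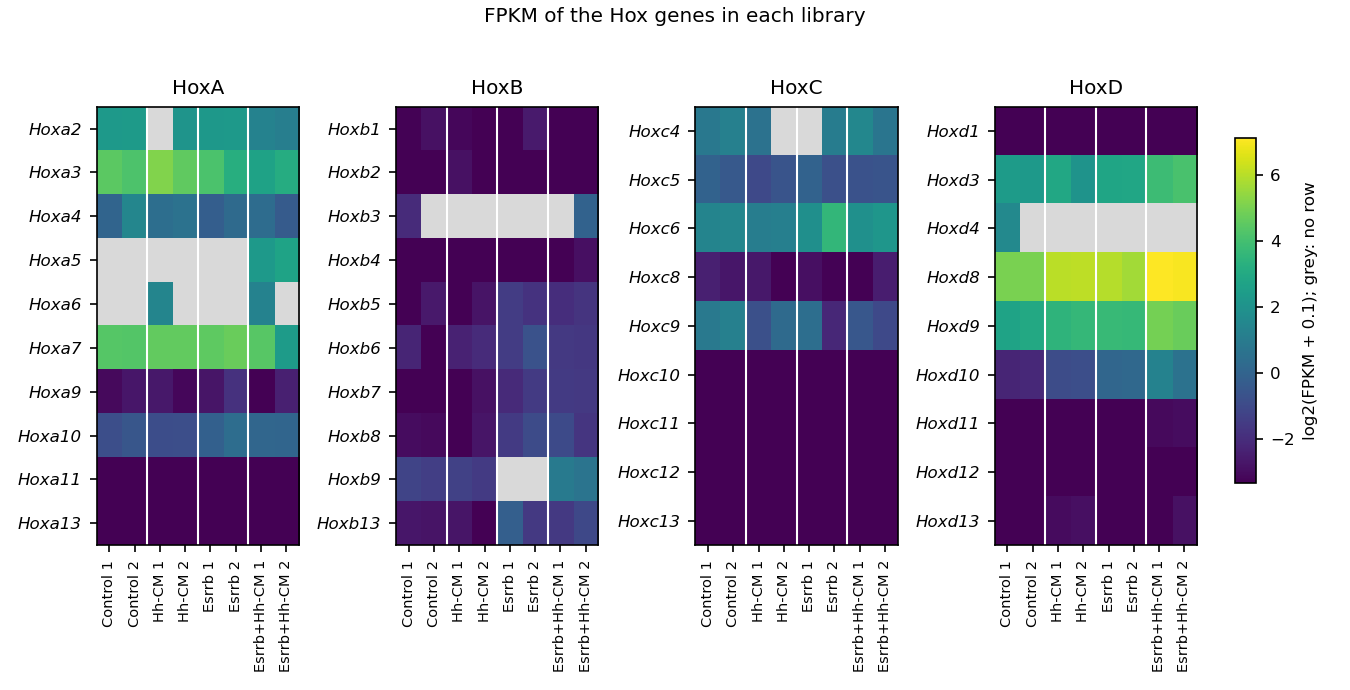
Level of each Hox gene, as log2(FPKM + 0.1) by colour, in the 8 libraries (columns), by cluster and from anterior (top) to posterior (bottom), with grey where a library had no row for the gene. Hoxd8 is the brightest row, from 32.5 FPKM in Control to 138.6 FPKM in Esrrb+Hh-CM, and the HoxC genes from Hoxc10 to Hoxc13 are at 0.

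In Control cells Hoxd8 had the highest Hox value, 32.5 and 32.9 FPKM. Hoxa3 followed with 22.5 and 18.5 FPKM and Hoxa7 with 20.7 and 20.3 FPKM, and these 2 neighbours in the order overlapped. Hoxd9 was at 6.58 and 7.85 FPKM, above Hoxd3 at 5.21 and 4.97 FPKM. FPKM are per length, so the order compares levels between rows. The Control rows of Hoxa3 also covered Hoxa4, Hoxa5 and Hoxa6, and those of Hoxd3 covered Hoxd4. Those of Hoxa7 covered Mira, a long RNA, so the values of these rows are not levels of single genes.

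The HoxD genes Hoxd8, Hoxd9 and Hoxd10 had their lowest values in the Control libraries and their highest in the Esrrb+Hh-CM libraries. All 3 were called up between these groups, Hoxd10 with a limit given below. Against Control, Hh-CM alone was called for Hoxd8 and Hoxd10, and the Esrrb label alone for Hoxd10. Hoxd8 (chromosome 2, 74542672 to 74545990 on mm9, plus strand) is a central HoxD gene. It measured 32.5 and 32.9 FPKM in Control, 66.3 and 68.4 FPKM in Hh-CM, 63.2 and 50.6 FPKM in Esrrb, and 138.6 and 129.5 FPKM in Esrrb+Hh-CM. Each of the other 3 groups lay above Control, Esrrb replicate 1 came close to the Hh-CM libraries, and both Esrrb+Hh-CM libraries stood above the other 6. Across both vectors, all 4 Hh-CM libraries were above all 4 vehicle libraries, which held for 10.3% of 14837 genes with a value above 0 and for no other Hox gene. With limma on log2(FPKM + 0.1), Benjamini-Hochberg adjusted over 10286 genes, the difference between Hh-CM and Control was 1.04 ± 0.10 (SE, adjusted p = 0.0020). On the linear scale the ratio of the group means was 2.06. The bounds of the Hoxd8 row differed between libraries, and a second, longer row over the gene in Esrrb replicate 2 would bring that library from 50.6 to 64.8 FPKM.

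**Figure D2:**
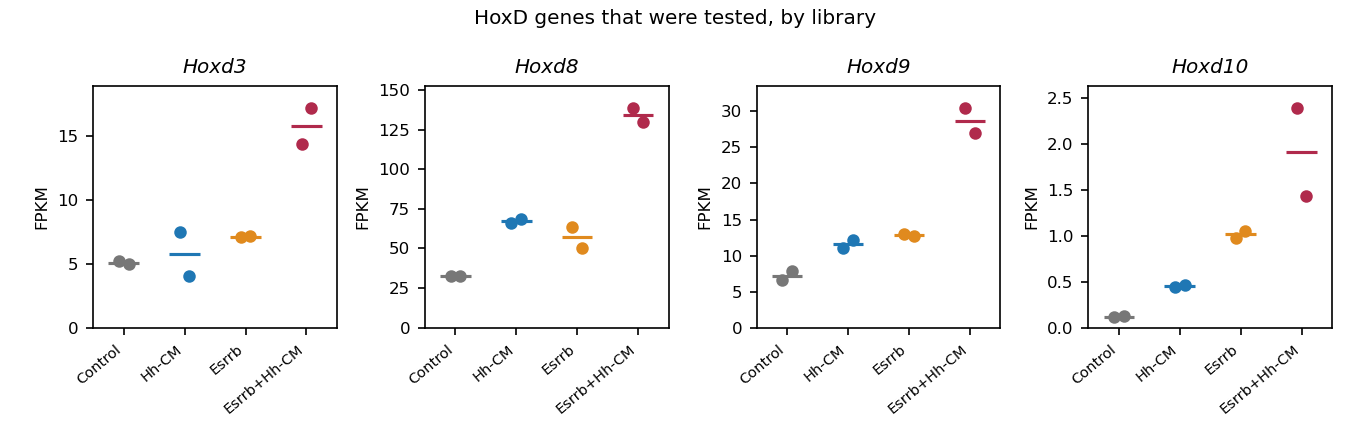
FPKM of Hoxd3, Hoxd8, Hoxd9 and Hoxd10 (vertical axes, linear from 0) in each library (points) of the 4 groups, with the mean of the 2 libraries as a line. The Esrrb+Hh-CM points are the highest in every panel, at 138.6 and 129.5 FPKM for Hoxd8.

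Hoxd9, the neighbour of Hoxd8 on the posterior side (chromosome 2, 74535737 to 74538265), was at a lower level. Control was again lowest and Esrrb+Hh-CM highest, but Esrrb lay above Hh-CM, the reverse of Hoxd8. It measured 6.58 and 7.85 FPKM in Control, 11.1 and 12.2 FPKM in Hh-CM, 12.99 and 12.7 FPKM in Esrrb, and 30.5 and 26.997 FPKM in Esrrb+Hh-CM. No group overlapped another, and the row covered the same bases in all 8 libraries. The step from Control to Esrrb+Hh-CM was 1.98 ± 0.11 on the log2 scale (limma adjusted p = 0.00010), a ratio of means of 3.98.

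Hoxd10, next in the cluster (chromosome 2, 74529147 to 74533163), came from near 0. It measured 0.114 and 0.129 FPKM in Control, 0.444 and 0.468 FPKM in Hh-CM, 0.980 and 1.05 FPKM in Esrrb, and 2.39 and 1.43 FPKM in Esrrb+Hh-CM. The groups again did not overlap, and the row spanned the same bases in every library. Its log2 difference was 3.14 ± 0.30 between Esrrb+Hh-CM and Control (limma adjusted p = 0.00078), and the ratio of means was 15.7. Hoxd10 reached 1 FPKM, the limit for testing, only in Esrrb-labelled libraries, so its calls between the vectors support nothing further. The authors' 95% interval was 0.0288 to 0.230 FPKM in Control replicate 2 and 1.62 to 3.17 FPKM in Esrrb+Hh-CM replicate 1. Farther towards the posterior end Hoxd11, Hoxd12 and Hoxd13 stayed at or below 0.0369 FPKM.

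Hoxd3 (chromosome 2, 74549986 to 74586331), on the anterior side, behaved otherwise. It measured 5.21 and 4.97 FPKM in Control, 7.50 and 4.02 FPKM in Hh-CM, 7.06 and 7.18 FPKM in Esrrb, and 14.4 and 17.2 FPKM in Esrrb+Hh-CM. Only Esrrb+Hh-CM stood clear of the rest, while Hh-CM straddled Control. Its row also covered Hoxd4, which had a separate row in Control replicate 1 alone, at 2.97 FPKM. With the rows of both genes summed, Control replicate 1 was at 8.17 FPKM and Esrrb+Hh-CM minus Control was 1.29 ± 0.34 (limma adjusted p = 0.033), a call that 6.23% of features received in that fit, and Esrrb+Hh-CM minus Esrrb was no longer called (1.13 ± 0.34, adjusted p = 0.065).

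Counts over the 9 tested Hox genes used adjusted p below 0.05 together with a log2 difference of at least 1. For Hh-CM minus Control, 2 were called, Hoxd8 and Hoxd10 (1.33 ± 0.30, adjusted p = 0.031 in the limma fit), both up, against 1.96% of all genes called up and 2.76% in either direction. Hoxd9 passed on p alone (0.69 ± 0.11, limma adjusted p = 0.0093), as did 18.0% of all genes. The Hoxd10 call did not hold in 8 of 19 alternatives, over which its adjusted p ran from 0.012 to 0.18, and it was lost without either Control library, either Hh-CM library or either Esrrb library. The median of the 9 was 0.26, and that of all genes 0.04.

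For Esrrb minus Control, 1 Hox gene was called up, Hoxd10 (2.33 ± 0.30, limma adjusted p = 0.0066), against 0.836% of all genes called up and 1.47% in either direction. Hoxd10 passed the limit for testing through Esrrb-labelled libraries alone, with all 4 empty-vector libraries at or below 0.468 FPKM, so that it was tested because it was high there, and its call between the vectors supports nothing further. Hoxd8 (0.79 ± 0.10) and Hoxd9 (0.83 ± 0.11) passed on adjusted p alone, at 0.0072 and 0.0067, as did 16.4% of all genes. The median of the 9 was 0.48, against 0.05 over all genes. With Esrrb replicate 1 left out, 3 Hox genes were called, Hoxd10 with Hoxc6 and Hoxc9.

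In Esrrb+Hh-CM minus Control 5 of the 9 were called, against 6.22% of all genes. Those that rose were Hoxd3 (1.61 ± 0.27), Hoxd8 (2.03 ± 0.10), Hoxd9 and Hoxd10, against 4.6% of all genes called up. Hoxd10 was tested because it was high in Esrrb-labelled libraries, so its call here supports nothing further either. Hoxa3 fell by 1.43 on the log2 scale (SE 0.36, limma adjusted p = 0.028), against 1.62% called down, and with all rows over Hoxa2 to Hoxa6 summed the difference was -0.87 ± 0.17 (limma adjusted p = 0.012), under the size limit and not called. This comparison shares its Control libraries with both comparisons above.

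The differences within Hh-CM and within the Esrrb label gave a further view. For Esrrb+Hh-CM minus Hh-CM, 4 Hox genes were called, against 1.98% of all genes: Hoxd3 (1.5 ± 0.27), Hoxd9 (1.29 ± 0.11) and Hoxd10 (1.81 ± 0.30) up and Hoxa3 down. The Hoxd10 call has the same limit here, since the gene was tested through Esrrb-labelled libraries alone. Hoxd8 lay just under the size limit, at 0.99 ± 0.10 with a limma adjusted p of 0.0035, which 18.9% of all genes passed without regard to size. Of the genes tested, 1.11% were called up and 0.875% down. Without Hh-CM replicate 1, 2 were called, Hoxd3 and Hoxd9. The Hoxd10 call was also lost without Hh-CM replicate 2, the Hoxd3 call without either Esrrb+Hh-CM library, and the Hoxa3 call without Esrrb+Hh-CM replicate 1. For Esrrb+Hh-CM minus Esrrb, 3 were called, all up, against 3.47% of all genes called up and 4.81% in either direction: Hoxd3 (1.13 ± 0.27), Hoxd8 (1.24 ± 0.10) and Hoxd9 (1.15 ± 0.11). Hoxd10 differed by 0.81 ± 0.30 (limma adjusted p = 0.11) and was not called. The Hoxd3 call of this comparison held in 12 of 19 alternatives that kept its row as deposited, with adjusted p from 0.0027 to 0.13, and was lost without either Control, either Esrrb or either Esrrb+Hh-CM library.

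**Figure D3:**
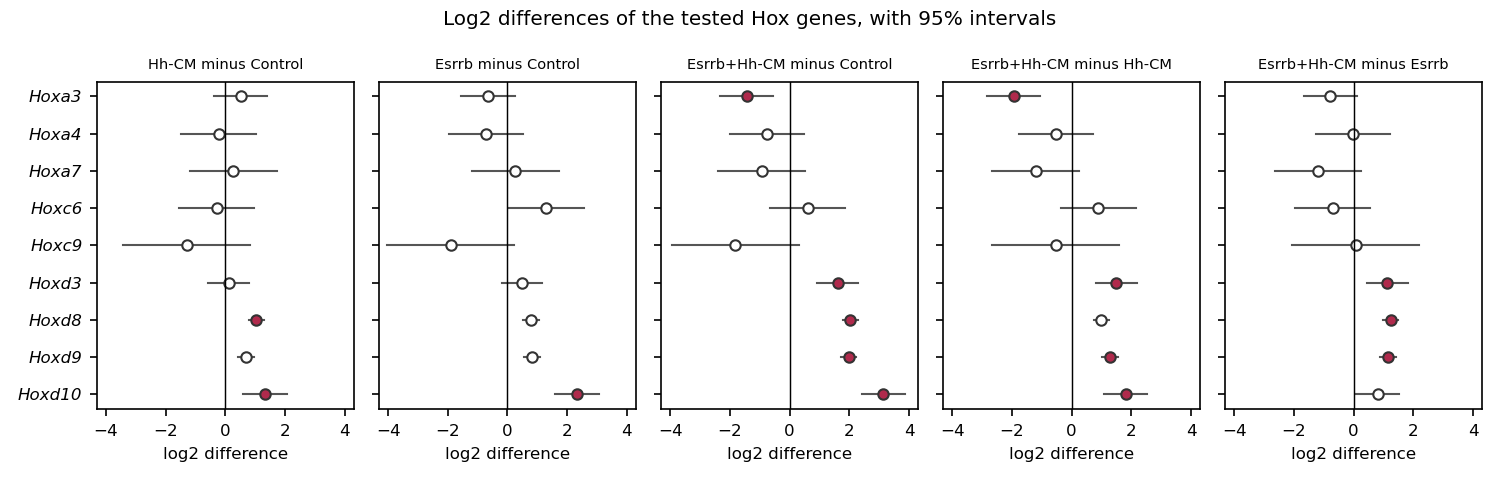
Log2 differences of the 9 tested Hox genes (rows) in the 5 pairwise comparisons (panels), with 95% intervals as lines; filled points passed both thresholds. The HoxD genes lie to the right of 0 in every panel, and Hoxa3 lies at -1.43 in Esrrb+Hh-CM minus Control and at -1.94 in Esrrb+Hh-CM minus Hh-CM.

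Whether the Hh-CM difference depended on the vector was tested by the interaction. No Hox gene passed at an adjusted p below 0.05 in the limma fit, against 1.35% of all genes, and 3 of the 9 had an unadjusted p below 0.05, against 18.0% of all genes. Those were Hoxd9 (0.47 ± 0.15), Hoxd3 (1.02 ± 0.39) and Hoxa3 (-1.29 ± 0.51), with limma adjusted p of 0.19, 0.25 and 0.27. For Hoxd8 the interaction was 0.20, with a 95% interval from -0.16 to 0.56. Side by side, in libraries that share none, Hoxd8 differed with Hh-CM by 1.04 in empty-vector cells and 1.24 in Esrrb-labelled cells. The same pair of values was 0.69 and 1.15 for Hoxd9, 1.33 and 0.81 for Hoxd10, and 0.11 and 1.13 for Hoxd3. Of the 9 tested Hox genes, 6 had the same sign of Hh-CM difference in both vectors (66.7%), against 66.9% of all genes. The sign of the vector difference was the same in both treatments for 8 of 9 (88.9%), against 68.6% of all genes. Hoxd10, 1 of the 8, was tested because it was high in Esrrb-labelled libraries. Its sign was thus tied to that choice, and the count supports nothing further. An interaction was called for Hoxd3 without Hh-CM replicate 1 and for Hoxa7 without Esrrb+Hh-CM replicate 1.

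In HoxB the genes with a row in every library had low values. The values of Hoxb5, Hoxb6, Hoxb7, Hoxb8 and Hoxb13 were higher in the Esrrb-labelled libraries than in the empty-vector ones. Hoxb9, which lacked a row in some libraries, reached 1.87 FPKM in Esrrb+Hh-CM and is described below. None of the 8 HoxB genes with a row in every library reached 1 FPKM in any library, and none was tested. Hoxb8, from the central part of the cluster, measured 0.0256 and 0.0218 FPKM in Control, 0 and 0.0498 FPKM in Hh-CM, 0.240 and 0.421 FPKM in Esrrb, and 0.405 and 0.207 FPKM in Esrrb+Hh-CM. All 4 Esrrb-labelled libraries were above the other 4. Values were expressed in steps only for genes whose values, scaled for depth, were all whole multiples of the smallest within a tolerance of 0.1. That agreement was thus a condition and not a finding, and Hoxb5 and Hoxb6 did not meet it. Hoxb8 stood at 1, 1, 0 and 3 steps in the empty-vector libraries and at 8, 16, 15 and 6 steps in the Esrrb-labelled ones. In Control replicate 1 a step was worth 0.0256 FPKM.

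Hoxb7, beside Hoxb8, was at 0 FPKM in both Control libraries, 0 and 0.0380 FPKM in Hh-CM, 0.138 and 0.241 FPKM in Esrrb, and 0.247 and 0.237 FPKM in Esrrb+Hh-CM. Hoxb5 measured 0 and 0.0628 FPKM in Control, 0 and 0.0479 FPKM in Hh-CM, 0.260 and 0.190 FPKM in Esrrb, and 0.156 and 0.199 FPKM in Esrrb+Hh-CM. Hoxb6 measured 0.112 and 0 FPKM in Control, 0.1004 and 0.145 FPKM in Hh-CM, 0.262 and 0.516 FPKM in Esrrb, and 0.235 and 0.225 FPKM in Esrrb+Hh-CM. These genes too separated by vector with no overlap, with Hh-CM giving no comparable split. Hoxb13, the most posterior gene of the cluster and lying apart from it, measured 0.0562 and 0.0479 FPKM in Control, 0.0506 and 0 FPKM in Hh-CM, 0.793 and 0.231 FPKM in Esrrb, and 0.237 and 0.379 FPKM in Esrrb+Hh-CM. Its steps were 1, 1, 1 and 0 against 12, 4, 4 and 5.

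**Figure D4:**
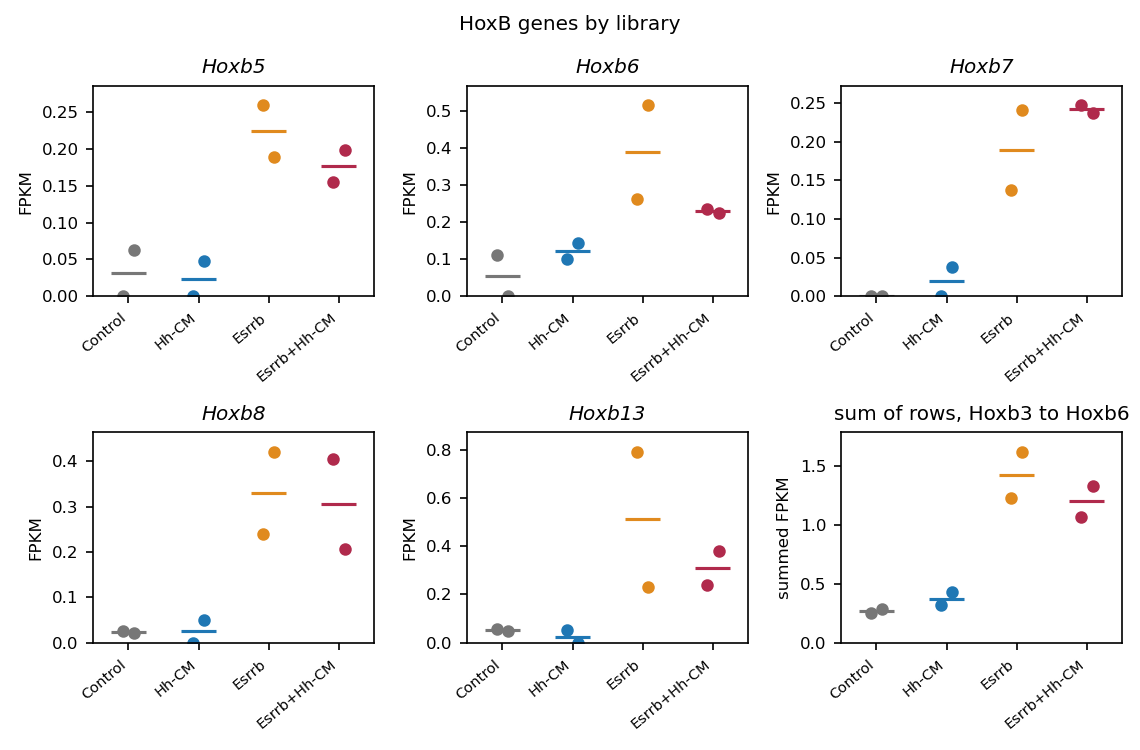
FPKM of Hoxb5, Hoxb6, Hoxb7, Hoxb8 and Hoxb13, and the summed FPKM of all rows over Hoxb3 to Hoxb6, in each library (points) of the 4 groups, with means as lines. In each panel the Esrrb and Esrrb+Hh-CM points lie above the Control and Hh-CM points, although no single gene exceeds 0.793 FPKM.

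Counted over the 23 Hox genes with a row in all 8 libraries and any value above 0, 9 (39.1%) had all 4 Esrrb-labelled libraries above all 4 empty-vector libraries, against 9.68% of 14837 genes. They were Hoxa10, Hoxb5, Hoxb6, Hoxb7, Hoxb8, Hoxb13, Hoxc6, Hoxd9 and Hoxd10, and neighbours in a cluster are not independent. Hoxa3 alone lay below (4.35%, against 5.3% of genes). When the limit on FPKM was dropped, the limma fit over 14837 genes called Hoxb5 (1.34 ± 0.31), Hoxb7 (1.51 ± 0.23) and Hoxb8 (1.77 ± 0.35) up in Esrrb minus Control, with adjusted p of 0.0497, 0.016 and 0.033, against 0.984% of genes called up. In the same fit all 3 were called up in Esrrb+Hh-CM minus Control, against 3.95% of genes called up, and Hoxb7 and Hoxb8 in Esrrb+Hh-CM minus Hh-CM, against 1.11%.

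Hoxb3 and Hoxb9 had rows that differed between libraries. Hoxb3 had a row of its own in Control replicate 1, at 0.141 FPKM, and in Esrrb+Hh-CM replicate 2, at 0.865 FPKM, and elsewhere shared a row with Hoxb4, Hoxb5 and Hoxb6. All rows over Hoxb3 to Hoxb6 summed to 0.252 and 0.283 FPKM in Control, 0.319 and 0.427 FPKM in Hh-CM, 1.23 and 1.62 FPKM in Esrrb, and 1.07 and 1.33 FPKM in Esrrb+Hh-CM. In a limma fit with neighbouring rows summed, chosen after the data were seen, this sum was called in Esrrb minus Control (2.04 ± 0.26, adjusted p = 0.0069), against 1.49% of features. The sum reached 1 FPKM, the limit for testing, only in Esrrb-labelled libraries. It was thus tested because it was high there, and its call between the vectors supports nothing further. Hoxb9 measured 0.344 and 0.284 FPKM in Control, 0.312 and 0.240 FPKM in Hh-CM, and 1.87 and 1.52 FPKM in Esrrb+Hh-CM. In Esrrb it had no row of its own and lay at the end of a longer row, at 4.58 and 7.64 FPKM. That row reached over the region before Hoxb9, which in the other libraries had separate rows at 0.452 and 0.385 FPKM in Control, 1.63 and 1.17 FPKM in Hh-CM, and 1.35 and 3.75 FPKM in Esrrb+Hh-CM. Hoxb1, Hoxb2 and Hoxb4 stayed below 0.1 FPKM in every library.

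HoxA held 2 of the 3 highest Hox values of Control, both from rows that covered other genes too, and showed the reverse direction at its anterior end. Hoxa3 (chromosome 6, 52113358 to 52163338, minus strand) measured 22.5 and 18.5 FPKM in Control, 35.5 and 23.9 FPKM in Hh-CM, 18.1 and 9.25 FPKM in Esrrb, and 6.46 and 8.73 FPKM in Esrrb+Hh-CM. Both Esrrb+Hh-CM libraries lay below the other 6. The difference from Hh-CM was -1.94 ± 0.36 (limma adjusted p = 0.019) and the ratio of means 0.256. The annotated gene encloses Hoxa4, Hoxa5 and Hoxa6, and in 6 libraries reads of Hoxa5 had no row of their own. Hoxa5 had its own row at 4.80 and 6.58 FPKM in Esrrb+Hh-CM, and shared a row with Hoxa6 at 8.17 FPKM in Esrrb replicate 2, so the low Hoxa3 rows coincide with separate Hoxa5 rows. All rows over Hoxa2 to Hoxa6 summed to 28.3 and 37.2 FPKM in Control, 39.3 and 29.4 FPKM in Hh-CM, 23.5 and 23.3 FPKM in Esrrb, and 17.2 and 18.2 FPKM in Esrrb+Hh-CM. The sums kept all 4 Esrrb-labelled libraries below the others, and the log2 difference of Esrrb+Hh-CM from Hh-CM was -0.94 ± 0.17 (limma adjusted p = 0.018), under the size limit. The fall of Hoxa3 against Control was not called without Control replicate 1, Control replicate 2, Esrrb+Hh-CM replicate 1 or Esrrb+Hh-CM replicate 2.

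**Figure D5:**
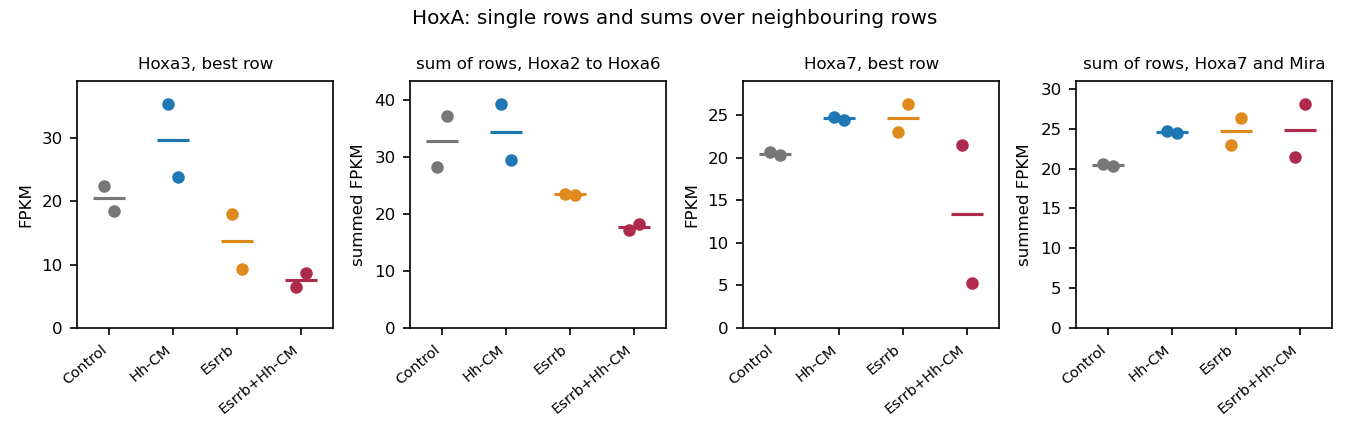
FPKM of the single best row of Hoxa3 and of Hoxa7, each beside the summed FPKM of neighbouring rows, in each library (points) of the 4 groups, with means as lines. Esrrb+Hh-CM is lowest for Hoxa3 and for the sum of Hoxa2 to Hoxa6 (17.2 and 18.2 FPKM), and the low Hoxa7 point of 5.29 FPKM becomes 28.2 FPKM in the sum. Rows of unlike length were added, so a sum is not the FPKM of a joined row.

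Hoxa2, the anterior neighbour, gave a value outside the long row. It measured 4.81 and 5.04 FPKM in Control, 4.10 FPKM in Hh-CM replicate 2, 4.68 and 4.79 FPKM in Esrrb, and 2.39 and 2.14 FPKM in Esrrb+Hh-CM. The Esrrb+Hh-CM libraries were below the other 5, with no test, since Hh-CM replicate 1 had no row of its own for this gene. Hoxa4 ran from 0.698 to 2.69 FPKM with all groups overlapping another, and none of its differences passed the test.

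Hoxa7 (chromosome 6, 52164490 to 52171853) measured 20.7 and 20.3 FPKM in Control, 24.8 and 24.5 FPKM in Hh-CM, 23.0 and 26.3 FPKM in Esrrb, and 21.5 and 5.29 FPKM in Esrrb+Hh-CM. The single low library had a separate row for Mira, a long RNA annotated at the end of Hoxa7, at 22.9 FPKM. With both rows summed it was at 28.2 FPKM, and the difference between Esrrb+Hh-CM and Control went from -0.93 ± 0.59 to 0.26 ± 0.13, neither passing the limma test (adjusted p = 0.27 and 0.18). FPKM are per length and both rows differ in length, so this sum is not on the scale of the joined rows of the other libraries. Hoxa10, a posterior gene, measured 0.476 and 0.598 FPKM in Control, 0.459 and 0.476 FPKM in Hh-CM, 0.824 and 1.21 FPKM in Esrrb, and 0.980 and 0.976 FPKM in Esrrb+Hh-CM. All 4 Esrrb-labelled libraries were above the rest, and without the FPKM limit the limma adjusted p was 0.083 for Esrrb minus Control and 0.051 for Esrrb+Hh-CM minus Hh-CM. Hoxa9 stayed at or below 0.180 FPKM.

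HoxC had a few expressed central genes and no difference that passed the test. Hoxc6 (chromosome 15, 102828688 to 102842312) measured 2.53 and 2.66 FPKM in Control, 2.06 and 2.16 FPKM in Hh-CM, 3.59 and 11.9 FPKM in Esrrb, and 3.64 and 4.38 FPKM in Esrrb+Hh-CM. All Esrrb-labelled libraries were above the empty-vector ones, with Esrrb replicate 2 well above its partner, and Esrrb minus Control was 1.30 ± 0.51 (limma adjusted p = 0.14). Its row began near the distal start in Control and in Esrrb replicate 2 and covered the shorter form in the others. Hoxc9 measured 1.77 and 2.23 FPKM in Control, 0.482 and 1.13 FPKM in Hh-CM, 1.28 and 0.127 FPKM in Esrrb, and 0.608 and 0.388 FPKM in Esrrb+Hh-CM. Control was the highest group, and the differences from it did not pass the test, the lowest being -1.90 with a 95% interval from -4.03 to 0.23. In 3 of 18 alternatives, 2 of which left out an Esrrb library, Hoxc9 was called down in Esrrb+Hh-CM against Control. Hoxc4, with a row in 6 libraries, ran from 1.42 to 2.74 FPKM, Hoxc5 from 0.400 to 0.871 FPKM and Hoxc8 from 0 to 0.0865 FPKM.

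Non-coding RNAs of the clusters were at 0 or low where they had a row of their own, other than Mira, described above with Hoxa7, which was at 22.9 FPKM in the 1 library that gave it a row. Hotair, the long RNA antisense to the HoxC genes, was between 0.145 and 0.281 FPKM in the 7 libraries that listed it. Hoxa11os was at 0 FPKM in 7 libraries and at 0.0344 FPKM in Hh-CM replicate 1. The hairpin loci of Mir10a, Mir10b, Mir196a-1, Mir196a-2, Mir196b and Mir615 were listed at 0 wherever they had a row, in libraries made from polyadenylated RNA. The rows carry no strand, so that a gene and an RNA antisense to it cannot be told apart.

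Few partners and regulators of Hox genes were called. None of the 28 tested Polycomb genes and none of the 15 tested Trithorax and H3K27 demethylase genes was called in any of the 6 comparisons. Of the 9 TALE cofactors, Pknox2 rose in Esrrb+Hh-CM against Control, from 0.965 and 0.755 FPKM to 2.48 and 2.14 FPKM (1.33 ± 0.19, limma adjusted p = 0.0035). Meis1, a partner of Hox proteins, was 14.2 and 13.9 FPKM in Control, 12.2 and 11.8 FPKM in Hh-CM, 15.3 and 14.7 FPKM in Esrrb, and 8.20 and 8.84 FPKM in Esrrb+Hh-CM. Its interaction passed the test (-0.58 ± 0.08, limma adjusted p = 0.040). Of 10 tested upstream regulators, Gmnn, which encodes the replication inhibitor geminin, was called up in Esrrb+Hh-CM against Control (1.12 ± 0.12, limma adjusted p = 0.0013) and against Esrrb, and no other was called.

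Outside the clusters, 15 neighbouring genes were tested. Ttll6, which lies beside HoxB, fell with Hh-CM in both vectors, from 2.46 and 1.18 FPKM in Control to 0.262 and 0.405 FPKM in Hh-CM, and from 1.30 and 1.99 FPKM in Esrrb to 0.154 and 0.392 FPKM in Esrrb+Hh-CM. The log2 differences were -2.08 ± 0.50 and -2.27 ± 0.50 (limma adjusted p = 0.039 and 0.024). Hnrnpa1, beside HoxC, and Hnrnpa3, beside HoxD, both RNA-binding proteins, passed the interaction test at 0.58 ± 0.05 and 0.42 ± 0.05 (limma adjusted p = 0.010 and 0.024). Of 17 other homeobox genes tested, Tgif2 was the 1 that rose in Esrrb+Hh-CM against Control, by 1.1 on the log2 scale (limma adjusted p = 0.0073), and none was called in the other comparisons. All 4 tested Hh target genes rose with Hh-CM in both vectors, with Ptch1 from 2.44 and 2.98 FPKM in Control to 37.0 FPKM in both Hh-CM libraries.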

How the data were processed

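RNA-Seq libraries (TruSeq Stranded mRNA kit, HiSeq) of 8 NIH3T3 cultures, 2 in each of 4 groups, were analysed. The authors trimmed reads with FASTX-Toolkit, aligned them with TopHat2 and Bowtie2 to mm9 and assembled loci with Cufflinks in each library on Galaxy. They deposited FPKM per locus with 95% intervals, in 1 table a library. Versions are not given in the sources used here. Counts are not analysed here, so depth is known only relative to 1 library.

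Each annotated gene (GENCODE vM1, on mm9) took the row that overlapped it best in each library, with a shared length of at least 0.5 of the joint length (0.8 in an alternative). Rows over several Hox genes were reported as joined, and in a further fit the rows of neighbouring Hox genes were summed. Since FPKM are per length, a sum of rows of unlike length is not the FPKM of a joined row. Sums are therefore not strictly comparable between libraries whose rows were split differently. Because assembly was done per library, row bounds differ between libraries, and reads can pass from the row of a gene to that of its neighbour. Genes with FPKM of at least 1 in at least 2 libraries (10286) entered limma 3.58.1 (R 4.3.3) on log2(FPKM + 0.1), with 4 group means over all 8 libraries, a variance trend and Benjamini-Hochberg adjustment. Fold changes of low genes are understated on this scale. Genes were called at an adjusted p below 0.05 and a log2 difference of at least 1, and the interaction at adjusted p alone. The fit was checked on simulated data. An exact permutation test of 2 against 2 libraries cannot go below p = 0.33 and was not used. Same-numbered libraries did not deviate together (correlations from -0.0593 to 0.0623 over 6 pairs), so the replicate number was used as a block only in an alternative.

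All 38 listed Hox genes, and the listed genes of other groups that passed both thresholds (or, for the interaction, the adjusted p), are named in the text. Members, lists and tests were chosen with earlier results of these data known. Long RNAs were looked up by RefSeq accession, and 1 of the 12 on the list (Hoxb3os) was in the annotation by symbol. Promoter sequences and motif shares come from RefSeq on GRCm38.p6, and 22 of the 38 Hox genes matched. Python 3.11.15, pandas 2.3.3 and matplotlib 3.10.9 were used. Results for some genes of the lists are not reported here.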

Additional observations from a re-analysis of the deposited data

Results flagged for a closer look

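Hoxa3 was looked at again because every Hh-CM library was above every Control library while both Esrrb+Hh-CM libraries were below both Esrrb libraries. The interaction was -1.29 on the log2 scale, with a limma adjusted p of 0.27, so the difference between the vectors was tested and did not pass. With all rows over Hoxa2 to Hoxa6 summed, Hh-CM (39.3 and 29.4 FPKM) overlapped Control (28.3 and 37.2 FPKM). In these sums Esrrb+Hh-CM (17.2 and 18.2 FPKM) stayed below Esrrb (23.5 and 23.3 FPKM). The interaction of the sum was -0.47 (limma adjusted p = 0.39). For Hoxa7 the directions in the single rows were also opposite, both for Hh-CM between the vectors and for the vector between the treatments. The interaction of Hoxa7 was -1.46 (limma adjusted p = 0.43), and rested on the 5.29 FPKM row of Esrrb+Hh-CM replicate 2, where the summed rows, of unlike length, gave 28.2 FPKM. With 2 libraries a group no library could be tested as standing apart.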

How the results depend on the processing

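The number of Hox genes called was kept within 1.5 times the reported number in 98 of 118 recalculations. For Hh-CM minus Control (2 genes), 1 remained with a pseudocount of 1, with FPKM of at least 1 in every library and with the replicate number as a block. For Esrrb minus Control (1 gene), a pseudocount of 1 and FPKM of at least 1 in every library left 0, no limit on FPKM gave 4, adjusted p alone 3 and summed neighbouring rows 3. The 3 called with summed rows were Hoxd10, the sum over Hoxb3 to Hoxb6 and the row over Hoxb9. Each reached 1 FPKM only in Esrrb-labelled libraries and was tested because it was high there, so these calls support nothing further. Esrrb+Hh-CM minus Control (5 genes) reached 8 with no limit on FPKM, and Esrrb+Hh-CM minus Hh-CM (4 genes) gave 2 when only the compared groups were fitted. Leaving out a library in turn gave 1 to 2 genes for Hh-CM minus Control, 1 to 3 for Esrrb minus Control, 4 to 6 for Esrrb+Hh-CM minus Control, 2 to 4 for Esrrb+Hh-CM minus Hh-CM, 2 to 3 for Esrrb+Hh-CM minus Esrrb and 0 to 1 for the interaction. The lone library of a group was then assumed to vary like the others. The block, whose numbers did not pair the libraries, moved the count by over 1.5 times only for Hh-CM minus Control.

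Over the 9 tested Hox genes 965 of 1032 recalculations stayed on the same side of the thresholds, 32 lost a call and 18 gained one. The direction turned in 17, none of them called: Hoxa7 in Esrrb+Hh-CM minus Control was 0.26 with summed rows and ran from -1.93 to 0.069 when a library was left out (0.069 without Esrrb+Hh-CM replicate 2), Hoxd3 in Hh-CM minus Control was -0.21 with summed rows and ran from -0.33 (without Hh-CM replicate 1) to 0.55, and the Hoxd10 interaction was 0.13 with a pseudocount of 1. Hoxc9 in Esrrb+Hh-CM minus Esrrb was -0.10 with a pseudocount of 1. With a library left out, Hoxc9 ran from -1.23 to 1.37 in that comparison and from -1.07 to 0.015 in Esrrb+Hh-CM minus Hh-CM. Hoxc6 ran from -1.55 (without Esrrb replicate 1) to 0.15 (without Esrrb replicate 2) in Esrrb+Hh-CM minus Esrrb and from -1.26 to 0.44 for the interaction. Hoxa4 ran from -0.94 to 0.48 in Hh-CM minus Control, from -0.37 to 0.33 in Esrrb+Hh-CM minus Esrrb and from -0.50 to 0.92 for the interaction. For Hoxa7 and Hoxd3 the summed rows differ by the added row of a neighbour, and for the others the cause was not tested. Values near 0 FPKM, above all in HoxB, rest on a few reads and limit what can be seen.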
